A study of Mus musculus with 15 samples.

Results

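The nuclear genes for the subunits of the mitochondrial respiratory chain and the ATP synthase were followed across 15 arrays of one mouse melanocyte line. Genes were chosen by symbol: the Nduf subunit series, Sdha to Sdhd, the Uqcr series, Cyc1, Cycs, the Cox series from Cox4 to Cox8 and the Atp5 series. The symbols matched 96 probe sets of 83 genes, of 22180 genes measured. Of the 83, 81 were subunit genes and 2 were pseudogenes (Atp5c1-ps and Uqcrh-ps1). The subunit genes comprised 32 of complex I, 4 of complex II, 8 of complex III, cytochrome c (Cycs), 17 of complex IV, the Ndufa4 and Ndufa4l2 pair and 17 of complex V, the ATP synthase. Where a gene had several probe sets, as 10 did, the brightest on average stood for it. Another 10 probe sets were annotated with a chain gene together with another gene and were left out, and Uqcr10, Ndufs6, Cox6c, Ndufb4 and Ndufb2 were measured by such probe sets alone.

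Complexes I to IV pass electrons from NADH and succinate to oxygen through coenzyme Q and cytochrome c. Complexes I, III and IV pump protons as they do so, and the ATP synthase uses the returning protons to make ATP. Most subunits are encoded in the nucleus and a few by mitochondrial DNA, so each complex except II is built from both. Hif1a encodes the oxygen-regulated subunit of HIF-1, the transcription factor known for raising glycolysis and restraining mitochondrial respiration in low oxygen. The known HIF-dependent changes in the chain itself include the isoforms Cox4i2 and Ndufa4l2.

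The cells were melan-Ink4a-Arf-1 (melan-a), an immortal melanocyte line that is homozygous for the Cdkn2a tm1RDp allele in every group, grown with phorbol ester and cholera toxin. There were 5 groups of 3 arrays, described by the series as biological triplicates. Cells of the Si1 and Si6 groups received a Hif1a siRNA 24 h before hypoxia, and 2 further hypoxic groups were labelled negative control and hypoxia control. What the negative control received, and how it differs from the hypoxia control, is not given in the sources used here. All 4 hypoxic groups spent 24 h in 1% oxygen with 5% CO2, against about 21% oxygen with 10% CO2 for normoxic cells, so that oxygen and CO2 cannot be told apart. The question addressed is what low oxygen does to expression in pigment cells and how much of it needs Hif1a.

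Values were log2 intensities with array medians between 6.52 and 6.61, and arrays correlated at 0.9931 to 0.9957 within groups and 0.9782 to 0.9931 between groups. Hif1a ranged from 8.59 to 8.75 in Si1 cells and from 8.90 to 8.98 in Si6 cells, against 10.56 to 10.68 in negative control cells, log2 fold changes of -1.98 and -1.70. The mean level of the 8 melanocyte markers lay between 10.82 and 11.89 on every array, with medians of 10.84 in Si1 cells, 11.44 in Si6 cells, 11.15 in negative control cells, 11.68 in hypoxia control cells and 11.87 in normoxic cells. Against the negative control, Mitf, Tyr, Sox10, Dct and Tyrp1 were called lower in Si1 cells (-0.93 to -0.13), and Pmel, Mlana and Kit were not called. In Si6 cells Dct, Pmel, Mlana and Kit were called higher (0.24 to 1.11), and Mitf, Tyr, Tyrp1 and Sox10 were not called. Of 11 measured markers of fibroblasts, keratinocytes, leukocytes and endothelium, the highest was the collagen gene Col1a1, at 7.87 to 9.45, while the others stayed between 4.09 and 6.90. Col1a1 was lower in Si1 and Si6 cells than in negative control cells (log2 fold changes of -0.81 and -0.36). So was the fibroblast marker Dcn (-0.24 and -0.20), a dim gene at percentile 19.3 of all genes by mean level. The fibroblast markers Pdgfra (-0.16 and -0.20) and Lum (0.13 and 0.12) were called with neither siRNA. In hypoxia control against normoxic cells Col1a1 fell by 1.00, and Pdgfra, Dcn and Lum were not called. The part of these markers in the results was not tested.

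With either Hif1a siRNA, most chain and ATP synthase genes were more highly expressed than in negative control cells. Of the 81 subunit genes, 58 rose and 2 fell in Si1 cells, and 56 rose and 2 fell in Si6 cells, at an adjusted p under 0.05 (limma, Benjamini-Hochberg over all genes). Among all 22180 genes, 20.2% were called higher and 14.8% lower in Si1 cells, and 17% higher and 11.9% lower in Si6 cells, while of the subunit genes 71.6% and 69.1% were called higher. The median log2 fold change of the 81 was 0.36 in Si1 cells and 0.33 in Si6 cells, each beside a median of -0.01 over all genes. Every array of the siRNA group lay above every negative control array for 57 subunit genes in Si1 cells and 61 in Si6 cells, and below for 2 in each. Among all genes, 23.6% lay wholly above and 19.8% wholly below in Si1 cells, and 21.8% and 17.6% in Si6 cells. Both comparisons use the same negative control arrays. When the hypoxia control took the place of the negative control, 51 rose and 3 fell in Si1 cells (all genes, 20.9% and 17.1%), and 50 rose and 2 fell in Si6 cells (all genes, 16.9% and 12.9%). Of the 58 and 56 genes higher than in the negative control, 48 in Si1 cells and 47 in Si6 cells were also called higher than in the hypoxia control. The 10 that were not in Si1 cells were Ndufa1, Ndufa3, Ndufb10, Ndufs4, Cox7a2, Atp5c1, Atp5d, Atp5g1, Atp5g2 and Atp5o, and the 9 in Si6 cells were Ndufa1, Ndufa9, Ndufb10, Uqcrfs1, Uqcrh, Cox4i1, Atp5d, Atp5g2 and Atp5o.

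**Figure D1:**
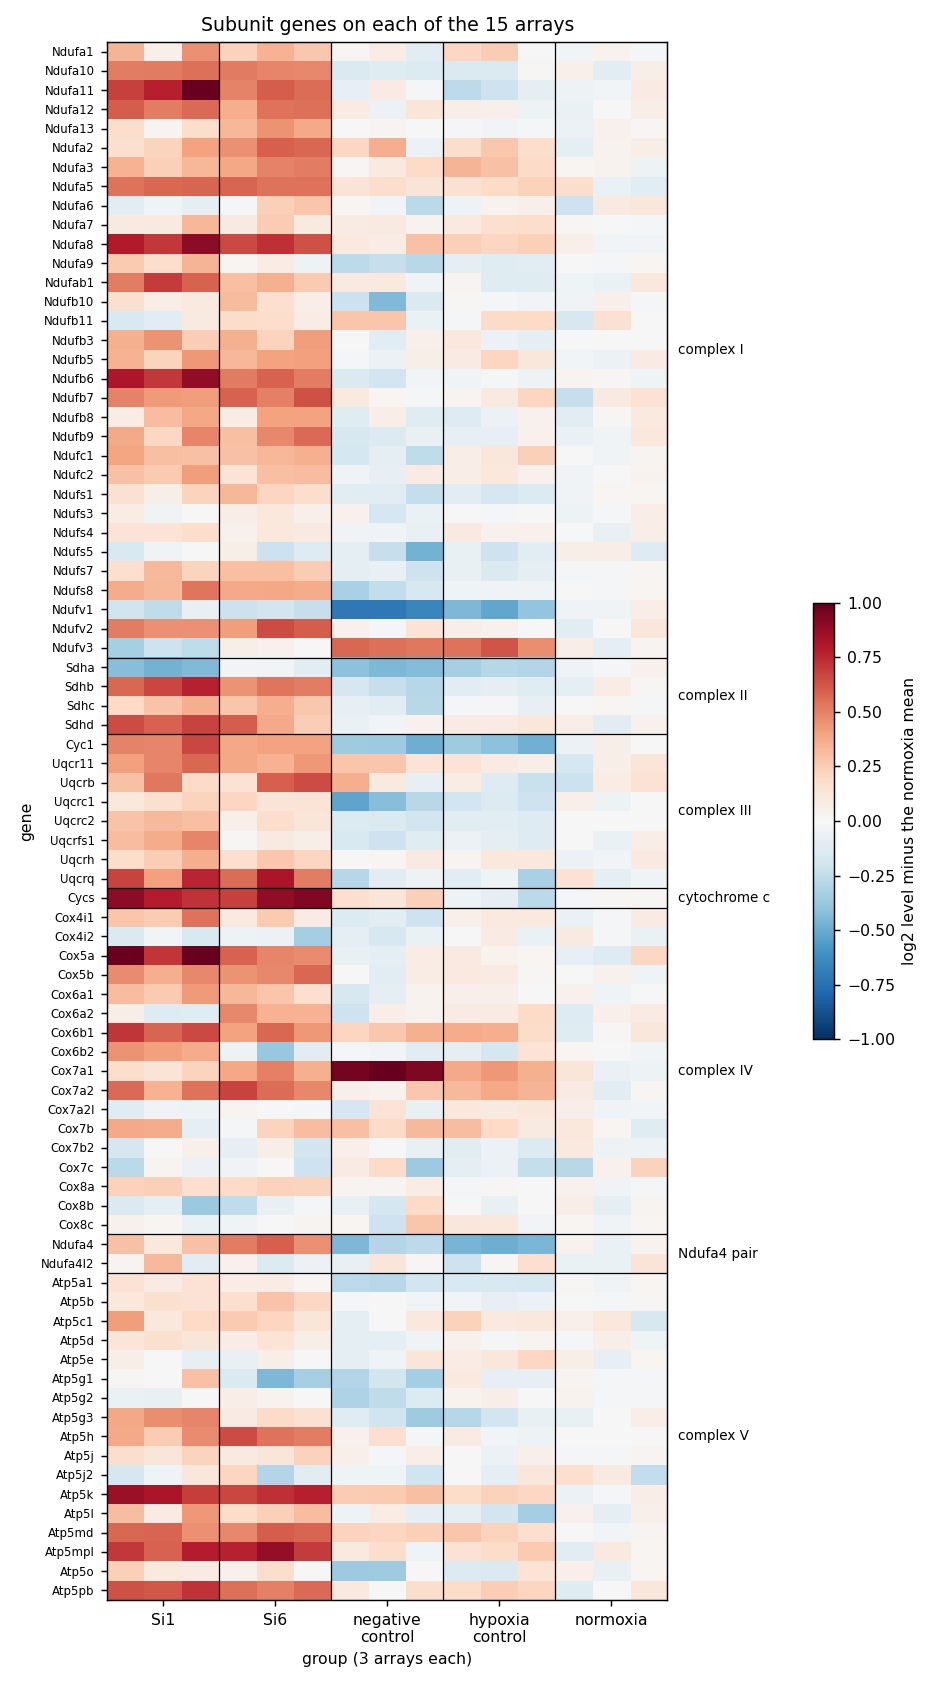
Each row is one of the 81 subunit genes and each column one of the 15 arrays, grouped as Si1, Si6, negative control, hypoxia control and normoxia, and the colour is the log2 level minus that gene's normoxia mean, with values beyond 1 in either direction drawn at the end of the scale. The 6 siRNA columns are red for most genes, and Cox7a1 and Ndufv3 show the opposite, being highest in negative control or hypoxia control cells.

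Hypoxia control cells showed no such one-sided shift of the nuclear subunit genes. Between hypoxia control and normoxic cells, 10 of 81 rose and 5 fell, that is 12.3% and 6.17%, beside 9.87% and 11.2% of all genes. Their median log2 fold change was 0.00, as was that of all genes. The genes that rose were Ndufa3, Ndufa5, Ndufa8, Ndufv3, Cox6b1, Cox7a1, Cox7a2, Atp5k, Atp5md and Atp5pb, by 0.19 to 0.55 on the log2 scale. A second, dimmer Ndufa8 probe set was not called (0.08, limma adjusted p = 0.4598), so the Ndufa8 call depends on the probe set. The 5 that fell were Ndufa4, Ndufv1, Cyc1, Sdha and Atp5a1, by 0.15 to 0.47. These include the NADH-oxidising subunit of complex I, the flavoprotein that oxidises succinate, the haem-carrying cytochrome c1 of complex III and the catalytic-head subunit alpha of the ATP synthase.

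The negative control itself was called different from the hypoxia control at few of these genes, though more of them lay below it than above. Only Cox7a1 and Cycs were called higher and 6 subunit genes lower (Ndufb10, Ndufc1, Ndufs8, Ndufv1, Uqcrc1 and Atp5g2), that is 2.47% and 7.41%, beside 7.8% and 7.51% of all genes. The log2 fold change was negative for 56 of the 81 and positive for 25. Their median was -0.07, beside -0.01 over all genes. Against normoxic cells, the negative control had 6 subunit genes higher and 17 lower, beside 14.6% and 15.7% of all genes. In the same comparison with normoxia, Si1 cells had 53 higher and 3 lower (all genes, 21.7% and 17.4%) and Si6 cells 48 higher and 2 lower (all genes, 17% and 13.1%). The level in hypoxic cells with a Hif1a siRNA thus stood above that of normoxic cells for most subunit genes, with median log2 fold changes of 0.28 in Si1 cells and 0.26 in Si6 cells. By complex, the genes above normoxia in Si1 and Si6 cells numbered 21 and 22 of 32 in complex I, 3 and 3 of 4 in complex II, 6 and 5 of 8 in complex III, 9 and 8 of 17 in complex IV and 12 and 8 of 17 in the ATP synthase. Those below were Ndufv1, Ndufv3 and Sdha in Si1 cells and Ndufv1 and Atp5g1 in Si6 cells. The pseudogene probe sets Atp5c1-ps and Uqcrh-ps1 were called with neither siRNA against the negative control. Their log2 fold changes in Si1 and Si6 cells were -0.02 and -0.16 for Atp5c1-ps and 0.44 and 0.34 for Uqcrh-ps1. Against normoxia, Uqcrh-ps1 was called higher in Si1 cells (0.54). Both are dim, at percentiles 9 and 11.8 of all genes by mean level.

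**Figure D2:**
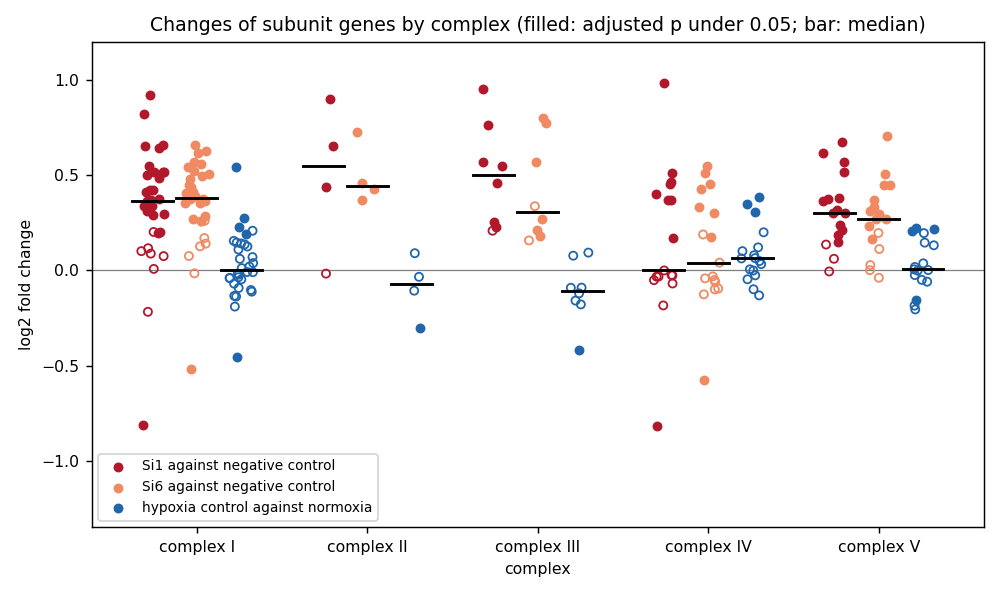
Points are the subunit genes of complexes I to V, the vertical axis is the log2 fold change, and the 3 colours are Si1 against negative control, Si6 against negative control and hypoxia control against normoxia; filled points had an adjusted p under 0.05 and bars are medians. The siRNA medians of complexes I, II, III and V lie between 0.27 and 0.55, those of complex IV are 0.00 and 0.04, and the hypoxia medians lie between -0.11 and 0.06.

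In complex I, 24 of 32 subunit genes rose and 1 fell in Si1 cells, and 25 rose and 1 fell in Si6 cells, with medians of 0.37 and 0.38 on the log2 scale. Ndufb6, an accessory subunit of the membrane arm, had the largest rise of the complex in both siRNA groups. Ndufb6 had log2 levels of 9.83, 9.73 and 9.91 in Si1 cells and 9.54, 9.62 and 9.53 in Si6 cells, against 8.88, 8.83 and 8.99 in negative control cells. The siRNA arrays did not overlap the negative control arrays, and the log2 fold changes were 0.92 ± 0.06 in Si1 cells and 0.66 ± 0.06 in Si6 cells (SE, n = 3 arrays a group; limma adjusted p = 5.445e-09 and 3.965e-07). Hypoxia control cells, at 8.99, 9.00 and 8.97, did not clear the test against normoxic cells, at 9.05, 9.04 and 8.98 (log2 fold change -0.04 ± 0.06).

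Ndufa11 had log2 levels of 10.12, 10.21 and 10.42 in Si1 cells and 9.93, 10.04 and 9.99 in Si6 cells, against 9.35, 9.51 and 9.42 in negative control cells. Ndufa11 is likewise a membrane-arm subunit, and its chosen probe set rose by 0.82 ± 0.08 in Si1 cells and 0.56 ± 0.08 in Si6 cells (SE). A second Ndufa11 probe set gave 0.11 ± 0.12 and -0.09 ± 0.12, so the rise of this gene depends on the probe set. The same holds for Ndufa12, whose second probe set gave 0.08 ± 0.06 and 0.10 ± 0.06, and for Ndufa8, whose second probe set gave -0.20 ± 0.07 and -0.16 ± 0.07 where the chosen one rose by 0.64 and 0.52. With a mean over each gene's probe sets, 58 subunit genes still rose in Si1 cells and 56 in Si6 cells, and the Ndufa11 changes were 0.47 and 0.23.

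The nuclear-encoded part of the catalytic core rose with the other nuclear genes of complex I. Grouped by role after values had been seen, 5 of the 6 measured nuclear core subunits rose with each siRNA (Ndufv1, Ndufv2, Ndufs1, Ndufs7 and Ndufs8). Ndufs3 did not pass with either (0.08 in Si1 cells and 0.14 in Si6 cells). The core subunits encoded by mitochondrial DNA are described further below. Among the 26 supernumerary subunits, 19 rose in Si1 cells and 20 in Si6 cells. Ndufa6, Ndufa7, Ndufb11 and Ndufs5 passed in neither, and the signs of Ndufb11 were negative in both (-0.22 and -0.02).

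Ndufv1 had log2 levels of 10.24, 10.19 and 10.37 in Si1 cells, 10.23, 10.26 and 10.22 in Si6 cells, 9.73, 9.73 and 9.79 in negative control cells, 10.00, 9.93 and 10.05 in hypoxia control cells and 10.41, 10.41 and 10.51 in normoxic cells. Ndufv1 carries the flavin that takes electrons from NADH. Normoxic arrays stood highest, siRNA arrays next, hypoxia control arrays below them and negative control arrays lowest, without overlap between these tiers. Against normoxia, Ndufv1 fell by 0.45 on the log2 scale in hypoxia control cells (adjusted p = 2.955e-05, limma), and with the siRNAs it rose by 0.52 ± 0.06 in Si1 cells and 0.48 ± 0.06 in Si6 cells against the negative control. Both siRNA groups remained below normoxia, at log2 fold changes of -0.18 and -0.21 (adjusted p = 0.02146 and 0.01032, limma). Those calls were lost with median centring (adjusted p = 0.1174 and 0.06336), and that of Si1 also with only the compared groups (0.08315) or without Si1 replicate a or b or normoxia replicate c (0.06645 to 0.09966).

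Ndufv3 had log2 levels of 8.22, 8.34 and 8.30 in Si1 cells, 8.61, 8.59 and 8.55 in Si6 cells, 9.12, 9.10 and 9.08 in negative control cells, 9.09, 9.17 and 9.01 in hypoxia control cells and 8.62, 8.45 and 8.58 in normoxic cells. Ndufv3, a supernumerary subunit attached to the NADH-oxidising module, was the complex I gene that ran against the rest. Both hypoxic control groups stood above normoxia without overlap, and the siRNA arrays stood below both. The log2 fold change was 0.55 ± 0.06 in hypoxia control against normoxic cells (adjusted p = 5.532e-06, limma). It was -0.81 ± 0.06 in Si1 cells and -0.52 ± 0.06 in Si6 cells against the negative control (adjusted p = 2.323e-08 and 5.402e-06). Si6 arrays overlapped the normoxic arrays, with a log2 fold change of 0.04 ± 0.06, and Si1 arrays lay below them (-0.26 ± 0.06).

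Complex II, succinate dehydrogenase, is encoded in the nucleus alone. Its iron-sulphur subunit Sdhb and membrane anchors Sdhc and Sdhd rose with both siRNAs. Sdhb had log2 levels of 9.26, 9.36 and 9.46 in Si1 cells and 9.14, 9.22 and 9.20 in Si6 cells, against 8.52, 8.45 and 8.40 in negative control cells. Sdhc had log2 levels of 10.10, 10.19 and 10.27 in Si1 cells and 10.18, 10.27 and 10.17 in Si6 cells, against 9.82, 9.79 and 9.63 in negative control cells. Sdhd had log2 levels of 10.48, 10.42 and 10.51 in Si1 cells and 10.43, 10.21 and 10.08 in Si6 cells, against 9.77, 9.80 and 9.88 in negative control cells. No siRNA array overlapped a negative control array for these 3 genes. The log2 fold changes in Si1 and Si6 cells were 0.90 ± 0.06 and 0.73 ± 0.06 for Sdhb, 0.44 ± 0.06 and 0.46 ± 0.06 for Sdhc, and 0.66 ± 0.08 and 0.43 ± 0.08 for Sdhd (SE, n = 3 arrays a group; all limma adjusted p at or below 0.0004519). None of the 3 was called between hypoxia control and normoxic cells.

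Sdha had log2 levels of 10.97, 10.93 and 10.96 in Si1 cells, 11.37, 11.37 and 11.29 in Si6 cells, 10.99, 10.95 and 10.97 in negative control cells, 11.07, 11.11 and 11.11 in hypoxia control cells and 11.37, 11.39 and 11.45 in normoxic cells. Sdha, the flavoprotein, was lower in hypoxia control than in normoxic cells, by 0.30 ± 0.05 on the log2 scale (adjusted p = 0.0001775, limma). Si6 arrays reached the normoxic range and stood 0.37 ± 0.05 above the negative control (adjusted p = 1.483e-05). Si1 arrays overlapped the negative control arrays, at a log2 fold change of -0.02 ± 0.05. The siRNAs differed from each other by -0.39 ± 0.05, Si1 minus Si6 (adjusted p = 9.532e-06). With the hypoxia control in place of the negative control, Sdha was lower in Si1 cells, by 0.14 on the log2 scale (adjusted p = 0.02273), and 0.25 higher in Si6 cells.

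**Figure D3:**
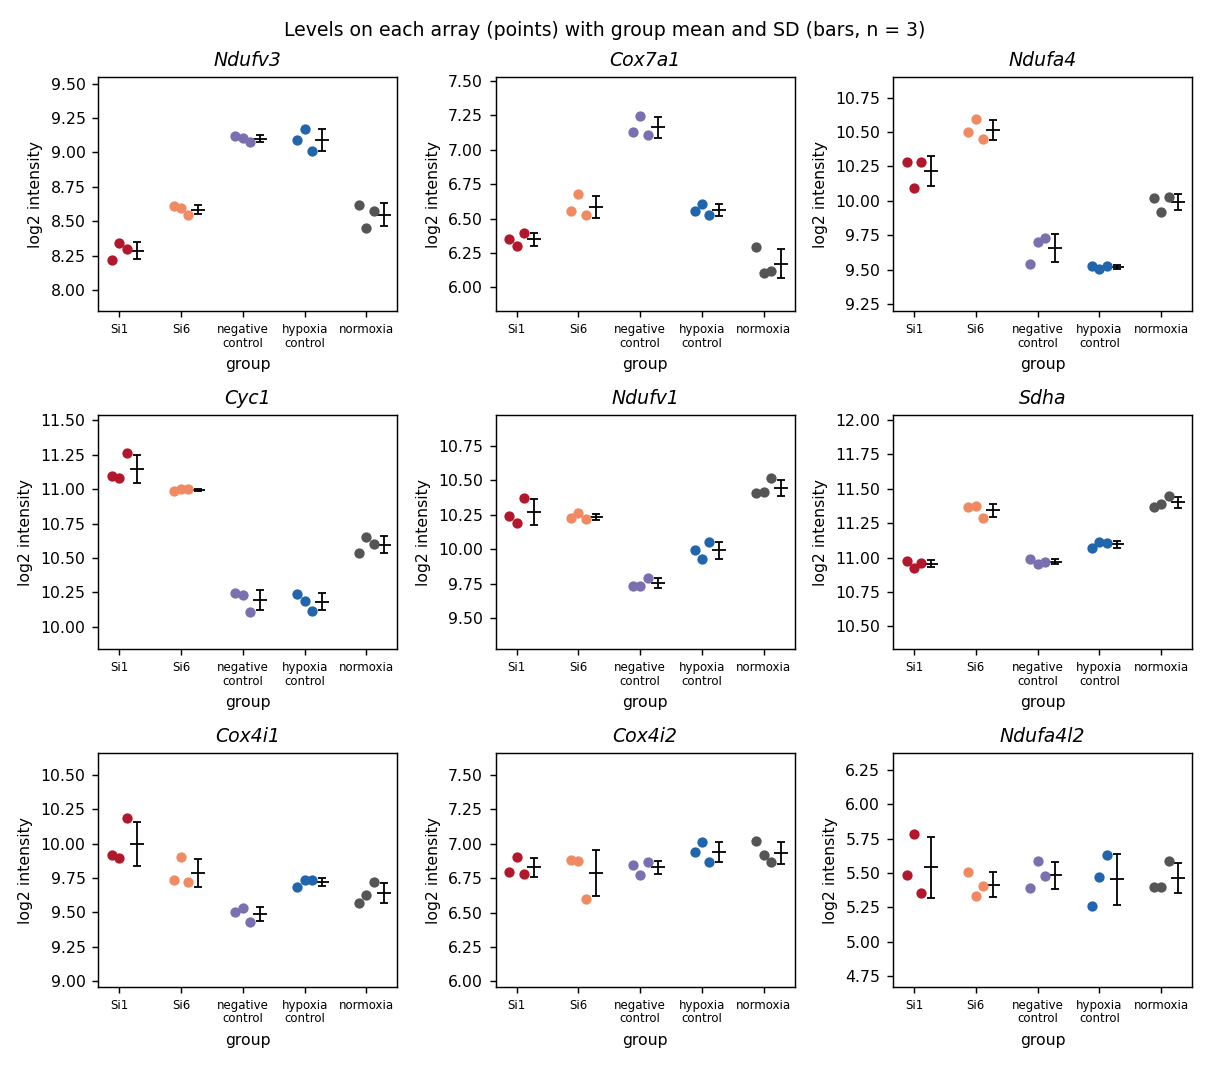
Points are the log2 intensities of 9 genes on each array, in the order Si1, Si6, negative control, hypoxia control and normoxia, with the group mean and SD (n = 3). Ndufv3 and Cox7a1 are higher in both hypoxic controls than in normoxia and lower with each siRNA than in the negative control, while the Si6 points of Cox7a1 overlap the hypoxia control, Ndufa4, Cyc1 and Ndufv1 are lowered in the hypoxic controls and higher with each siRNA, Sdha differs between Si1 and Si6, and Cox4i2 and Ndufa4l2 overlap between siRNA and negative control arrays.

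In complex III, 7 of 8 subunit genes rose in Si1 cells and 6 in Si6 cells, and none fell, with median log2 fold changes of 0.50 and 0.31. Cyc1 had log2 levels of 11.09, 11.08 and 11.27 in Si1 cells, 10.99, 11.00 and 11.00 in Si6 cells, 10.24, 10.23 and 10.11 in negative control cells, 10.24, 10.19 and 10.12 in hypoxia control cells and 10.54, 10.66 and 10.60 in normoxic cells. Cyc1, cytochrome c1, passes electrons on to cytochrome c. Both hypoxic control groups stood below normoxia and both siRNA groups above it, with no overlap. In hypoxia control against normoxic cells it fell by 0.42 ± 0.06 on the log2 scale (adjusted p = 0.0001304, limma). Cyc1 rose over the negative control by 0.95 ± 0.06 in Si1 cells and 0.80 ± 0.06 in Si6 cells (adjusted p = 7.688e-09 and 1.044e-07).

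Uqcrq had log2 levels of 8.65, 8.39 and 8.74 in Si1 cells and 8.54, 8.79 and 8.49 in Si6 cells, against 7.69, 7.87 and 7.93 in negative control cells. Uqcrc1 had log2 levels of 10.74, 10.79 and 10.86 in Si1 cells and 10.84, 10.76 and 10.77 in Si6 cells, against 10.10, 10.21 and 10.36 in negative control cells. Uqcrq, a small membrane subunit, and Uqcrc1, one of the large core proteins, were thus above the negative control on every siRNA array. Uqcrq changed by 0.76 ± 0.11 in Si1 cells and 0.78 ± 0.11 in Si6 cells on the log2 scale, and Uqcrc1 by 0.57 ± 0.06 in each. Uqcrc1 was also lower in negative control than in hypoxia control cells, by 0.23 on the log2 scale (adjusted p = 0.01984, limma), a call lost without negative control replicate a or b or hypoxia control replicate b (adjusted p between 0.06302 and 0.1086). The Rieske iron-sulphur protein Uqcrfs1 rose by 0.55 in Si1 cells and 0.21 in Si6 cells. Uqcrb was called with neither siRNA (0.21 and 0.34), and Uqcr11 with Si1 alone (0.26, against 0.16 in Si6 cells, which did not pass).

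Cycs had log2 levels of 12.15, 12.04 and 11.97 in Si1 cells, 11.94, 12.14 and 12.18 in Si6 cells, 11.41, 11.37 and 11.49 in negative control cells, 11.20, 11.17 and 10.98 in hypoxia control cells and 11.23, 11.26 and 11.26 in normoxic cells. Cytochrome c, the mobile carrier between complexes III and IV, was above all control groups on every siRNA array. Its log2 fold change was 0.63 ± 0.07 in Si1 cells and 0.66 ± 0.07 in Si6 cells against the negative control (adjusted p = 5.174e-06 and 5.33e-06, limma). The negative control itself stood 0.31 above the hypoxia control (adjusted p = 0.009082, and 0.0559 without hypoxia control replicate c). The other 4 Cycs probe sets, of which a pair held identical values, gave log2 fold changes between 0.70 and 1.37 in Si1 cells and between 0.55 and 1.34 in Si6 cells. In hypoxia control against normoxic cells the chosen probe set was not called (-0.14). There the identical pair was lower (-0.47, limma adjusted p = 0.01183), as was the dimmest probe set (-0.20, 0.0167). The remaining one was not called (0.09), so the hypoxia call depends on the probe set. Cytochrome c has many processed gene copies in the mouse genome, and probes may share their sequence.

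Complex IV, cytochrome c oxidase, was divided. Of its 17 genes 8 rose and 1 fell in Si1 cells, and 7 rose and 1 fell in Si6 cells, with medians of 0.00 and 0.04. By a grouping made after values had been seen, 7 of the 9 widely expressed subunits rose in Si1 cells and 6 in Si6 cells, among them Cox4i1, Cox5a and Cox5b. Of the 7 isoforms known as restricted to particular tissues (Cox4i2, Cox6a2, Cox6b2, Cox7a1, Cox7b2, Cox8b and Cox8c), 1 rose and 1 fell with each siRNA. Cox7a1 fell with both. The gene that rose was Cox6b2 in Si1 cells (0.46, against -0.13 in Si6 cells, not called). In Si6 cells it was Cox6a2 (0.43, against -0.02 in Si1 cells, not called). Among all genes, 20.2% were called higher and 14.8% lower in Si1 cells, and 17% and 11.9% in Si6 cells. Cox7a2l, a supercomplex factor named as a subunit isoform, passed with neither. The dim genes Cox7b2 and Cox8c were in the lowest 25% of all genes by mean level, where array fold changes are compressed.

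Cox5a had log2 levels of 9.85, 9.58 and 10.01 in Si1 cells and 9.45, 9.35 and 9.34 in Si6 cells, against 8.78, 8.77 and 8.94 in negative control cells. Cox5b had log2 levels of 11.50, 11.39 and 11.51 in Si1 cells and 11.47, 11.50 and 11.60 in Si6 cells, against 11.03, 10.91 and 11.10 in negative control cells. No siRNA array of either gene overlapped a negative control array. Cox5a had the largest rise of all subunit genes in Si1 cells, with a log2 fold change of 0.98 ± 0.10 (adjusted p = 1.121e-06, limma), and 0.55 ± 0.10 in Si6 cells. Cox5b rose by 0.45 ± 0.06 in Si1 cells and 0.51 ± 0.06 in Si6 cells. Neither was called between hypoxia control and normoxic cells (0.05 and 0.06). A dim second Cox5b probe set gave 0.24 ± 0.14 and 0.17 ± 0.14.

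Cox4i1 had log2 levels of 9.92, 9.89 and 10.18 in Si1 cells, 9.74, 9.91 and 9.72 in Si6 cells, 9.50, 9.53 and 9.43 in negative control cells, 9.69, 9.74 and 9.74 in hypoxia control cells and 9.57, 9.63 and 9.72 in normoxic cells. Cox4i1 is the common isoform of subunit IV. Against the negative control, it was higher by 0.51 ± 0.08 on the log2 scale in Si1 cells and 0.30 ± 0.08 in Si6 cells (adjusted p = 5.229e-05 and 0.006307, limma). Negative control arrays were lower than all other arrays. With the hypoxia control as the comparison, the Si1 change was 0.28 (adjusted p = 0.007952) and the Si6 change 0.07 (adjusted p = 0.5763), so that the Si6 call did not hold. Cox4i2 had log2 levels of 6.79, 6.91 and 6.78 in Si1 cells, 6.89, 6.88 and 6.60 in Si6 cells, 6.84, 6.77 and 6.87 in negative control cells, 6.94, 7.02 and 6.87 in hypoxia control cells and 7.02, 6.92 and 6.87 in normoxic cells. Cox4i2, the lung-type isoform known as induced by HIF-1 in mammalian cells, overlapped between siRNA and negative control arrays and between hypoxia control and normoxic arrays. Its log2 fold changes were 0.01 ± 0.08 in hypoxia control against normoxic cells, 0.00 ± 0.08 in Si1 and -0.04 ± 0.08 in Si6 cells against the negative control.

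Cox7a1 had log2 levels of 6.35, 6.30 and 6.39 in Si1 cells, 6.56, 6.68 and 6.53 in Si6 cells, 7.13, 7.25 and 7.11 in negative control cells, 6.55, 6.61 and 6.53 in hypoxia control cells and 6.29, 6.11 and 6.12 in normoxic cells. Cox7a1, the heart and muscle isoform of subunit VIIa, was lowest in normoxic and Si1 cells, level in Si6 and hypoxia control cells, whose arrays overlapped, and highest in negative control cells. It was 0.39 ± 0.06 higher on the log2 scale in hypoxia control than in normoxic cells (adjusted p = 0.0003437, limma) and a further 0.60 ± 0.06 higher in negative control than in hypoxia control cells (adjusted p = 8.471e-06). Against the negative control it was lower by 0.81 in Si1 cells and 0.58 in Si6 cells (adjusted p = 6.157e-08 and 4.669e-06). Against the hypoxia control the Si1 change was -0.21 (adjusted p = 0.01439) and the Si6 change was 0.03 (adjusted p = 0.8269), so that the fall in Si6 cells rests on the negative control. The widely expressed partner Cox7a2 rose in hypoxia control cells (0.35) and with both siRNAs (0.37 and 0.46).

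Ndufa4 had log2 levels of 10.28, 10.09 and 10.28 in Si1 cells, 10.50, 10.59 and 10.45 in Si6 cells, 9.54, 9.70 and 9.73 in negative control cells, 9.53, 9.51 and 9.53 in hypoxia control cells and 10.02, 9.92 and 10.03 in normoxic cells. Ndufa4, first described in complex I and now placed with complex IV, had the largest fall of any subunit gene in hypoxia control against normoxic cells, at -0.47 ± 0.07 (adjusted p = 9.09e-05, limma). It rose by 0.56 ± 0.07 in Si1 cells and 0.86 ± 0.07 in Si6 cells against the negative control (adjusted p = 5.114e-06 and 1.174e-07), and all siRNA arrays stood above the normoxic arrays. Ndufa4l2 had log2 levels of 5.49, 5.78 and 5.35 in Si1 cells, 5.51, 5.33 and 5.40 in Si6 cells, 5.39, 5.58 and 5.48 in negative control cells, 5.26, 5.47 and 5.63 in hypoxia control cells and 5.40, 5.40 and 5.59 in normoxic cells. Ndufa4l2, its paralogue and a known HIF-1 target in other cells, overlapped among all groups. Its log2 fold changes were -0.01 ± 0.11 in hypoxia control cells, 0.06 ± 0.11 in Si1 cells and -0.07 ± 0.11 in Si6 cells, and it was in the lowest 25% of genes by mean level. The files give no detection calls.

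In the ATP synthase, 14 of 17 genes rose in Si1 cells and 12 in Si6 cells, and none fell, with medians of 0.30 and 0.27. Atp5mpl had log2 levels of 8.01, 7.89 and 8.09 in Si1 cells and 8.07, 8.18 and 8.00 in Si6 cells, against 7.40, 7.47 and 7.26 in negative control cells. Atp5g3 had log2 levels of 9.88, 9.96 and 9.98 in Si1 cells and 9.58, 9.68 and 9.64 in Si6 cells, against 9.37, 9.29 and 9.13 in negative control cells. Atp5mpl, a small proteolipid of the membrane part, rose by 0.62 ± 0.08 in Si1 cells and 0.71 ± 0.08 in Si6 cells, and Atp5g3, one of 3 genes for the proton-carrying c ring, by 0.68 ± 0.07 and 0.37 ± 0.07. All siRNA arrays were above the negative control arrays. In the catalytic head, Atp5a1 rose by 0.37 in Si1 cells and 0.30 in Si6 cells, and Atp5b by 0.15 and 0.23. Atp5g1, another c ring gene, rose in Si1 cells (0.37) but not in Si6 cells (-0.04), while Atp5g2 rose with both (0.18 and 0.27). Against the hypoxia control, which stood above the negative control, Atp5g2 was called with neither siRNA (-0.09 in Si1 cells and -0.0006 in Si6 cells, limma adjusted p = 0.2373 and 0.9956), Atp5g1 was no longer called in Si1 cells (0.13) and was lower in Si6 cells (-0.29, adjusted p = 0.02197).

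Atp5pb had log2 levels of 10.42, 10.41 and 10.51 in Si1 cells, 10.34, 10.29 and 10.35 in Si6 cells, 9.88, 9.79 and 9.96 in negative control cells, 9.97, 10.03 and 10.00 in hypoxia control cells and 9.67, 9.79 and 9.90 in normoxic cells. Atp5md had log2 levels of 12.73, 12.74 and 12.61 in Si1 cells, 12.63, 12.76 and 12.74 in Si6 cells, 12.37, 12.37 and 12.39 in negative control cells, 12.43, 12.38 and 12.33 in hypoxia control cells and 12.15, 12.13 and 12.18 in normoxic cells. Atp5pb is subunit b of the peripheral stalk, and Atp5md is a small membrane subunit linked to dimers of the enzyme. Both were called in hypoxia control against normoxic cells (0.22 ± 0.06 and 0.22 ± 0.05) and again with the siRNAs. The hypoxia call of Atp5pb was lost without hypoxia control replicate b or c or without normoxia replicate a or b (limma adjusted p between 0.05235 and 0.1019). Against the negative control, Atp5pb rose by 0.57 ± 0.06 in Si1 cells and 0.45 ± 0.06 in Si6 cells, and Atp5md by 0.32 ± 0.05 and 0.33 ± 0.05. Atp5e, Atp5j and Atp5j2 passed with neither siRNA, and a second Atp5e probe set gave 0.24 ± 0.12 and 0.21 ± 0.12.

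The hypoxia and siRNA comparisons share no arrays and could be crossed. Of the 5 subunit genes that fell in hypoxia control cells, 4 rose in Si1 cells and 5 in Si6 cells. Of the 10 that rose in hypoxia control cells, 2 fell with each siRNA, Ndufv3 and Cox7a1, while 8 were called higher in Si1 cells and 7 in Si6 cells than in the negative control. Against the hypoxia control, 6 of those 8 and all 7 were called higher, and the other 2 in Si1 cells were Ndufa3 (0.03) and Cox7a2 (0.14). Of all 81 subunit genes, 71.6% were called higher than in the negative control in Si1 cells and 69.1% in Si6 cells. In each siRNA group 2.47% were called lower. Among all 22180 genes, 20.2% were called higher in Si1 cells and 17% in Si6 cells, and the crossing was not made there. Genes not called in hypoxia made up 46 of the 58 that rose in Si1 cells (79.3%) and 44 of the 56 in Si6 cells (78.6%), beside 66 of all 81 subunit genes (81.5%).

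**Figure D4:**
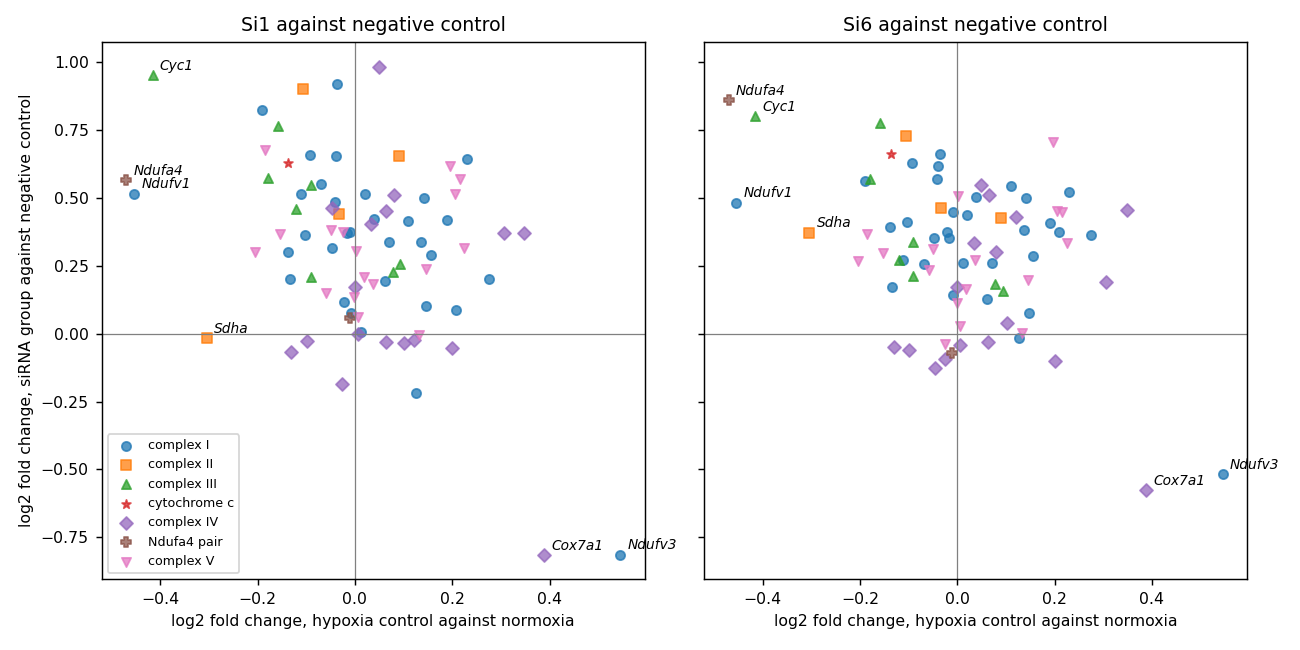
Each point is a subunit gene, with the log2 fold change in hypoxia control against normoxia on the horizontal axis and in Si1 (left) or Si6 (right) against negative control on the vertical axis, and symbols give the complex. Most points lie above 0 at hypoxia changes near 0, Ndufv3 and Cox7a1 lie at the lower right, and Ndufa4, Ndufv1 and Cyc1 at the upper left.

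Promoter windows, from 250 bases before to 50 after the start, were taken from RefSeq (GRCm38.p6) for 66 of the 81 subunit genes. Exact matches were sought on both strands. ACGTG, a form of the core of the hypoxia response element, was present for 27.3% of these genes, beside 21.8% of 27025 genes with a window. The form GCGTG was not sought. CACGTG, which holds ACGTG, was present for 9.1%, beside 8.1%. The NRF1 motif was present for 22.7%, beside 5.2%, the ETS motif CCGGAAG for 25.8%, beside 9.9%, and the YY1 motif AAGATGG for 15.2%, beside 7.3%. NRF1, the ETS factor GABP and YY1 are known regulators of nuclear genes for the chain. The 27025 genes were not matched to the subunit genes for expression or base composition. A match is a run of letters and no evidence of binding.

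The next 5 windows are shown because Ndufv3, Cox7a1, Ndufv1 and Ndufa4 moved in opposite directions in hypoxia control against normoxic cells and in siRNA against negative control cells, as Cyc1 and Atp5a1 also did, and because Sdha differed between the siRNAs. For Cox7a1 in Si6 cells that holds against the negative control and not against the hypoxia control. The first 3 have ACGTG or its complement CACGT in capitals, the Ndufa4 window has no match to either and no capitals, and the Sdha window has the NRF1 motif in capitals.
Ndufv3, chr17:31519865-31520164, plus strand: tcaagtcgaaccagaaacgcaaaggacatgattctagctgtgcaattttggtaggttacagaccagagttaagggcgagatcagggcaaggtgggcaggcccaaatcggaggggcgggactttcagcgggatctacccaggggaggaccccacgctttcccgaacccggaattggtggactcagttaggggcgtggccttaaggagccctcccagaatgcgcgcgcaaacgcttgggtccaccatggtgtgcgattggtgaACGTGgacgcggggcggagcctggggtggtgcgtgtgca
Cox7a1, chr7:30183921-30184220, plus strand: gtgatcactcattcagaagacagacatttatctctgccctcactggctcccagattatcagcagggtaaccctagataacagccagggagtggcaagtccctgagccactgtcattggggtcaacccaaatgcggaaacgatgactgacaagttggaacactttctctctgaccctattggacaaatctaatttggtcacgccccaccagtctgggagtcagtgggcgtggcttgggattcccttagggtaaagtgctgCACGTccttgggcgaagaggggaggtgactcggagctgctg
Ndufv1, chr19:4012706-4013005, minus strand: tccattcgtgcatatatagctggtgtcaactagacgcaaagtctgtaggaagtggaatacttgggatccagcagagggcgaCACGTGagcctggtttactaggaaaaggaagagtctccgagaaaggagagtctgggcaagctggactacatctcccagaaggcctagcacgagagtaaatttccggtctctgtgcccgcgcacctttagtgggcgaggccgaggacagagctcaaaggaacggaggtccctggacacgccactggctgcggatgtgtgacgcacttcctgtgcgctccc
Ndufa4, chr6:11907401-11907700, minus strand: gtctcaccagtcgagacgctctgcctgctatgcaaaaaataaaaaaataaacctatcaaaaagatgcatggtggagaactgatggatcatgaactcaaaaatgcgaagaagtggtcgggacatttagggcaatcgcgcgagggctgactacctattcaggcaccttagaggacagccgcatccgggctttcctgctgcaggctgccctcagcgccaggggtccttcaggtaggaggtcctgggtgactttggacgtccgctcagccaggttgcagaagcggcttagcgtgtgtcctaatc
Sdha, chr13:74350191-74350490, minus strand: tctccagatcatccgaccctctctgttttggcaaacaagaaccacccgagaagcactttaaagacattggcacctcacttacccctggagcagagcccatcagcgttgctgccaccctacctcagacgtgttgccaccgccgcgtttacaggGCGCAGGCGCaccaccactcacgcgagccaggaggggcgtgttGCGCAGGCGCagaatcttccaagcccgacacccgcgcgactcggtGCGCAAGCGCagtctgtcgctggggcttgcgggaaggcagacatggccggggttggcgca
Counted from the window's first base, ACGTG begins at base 262 in Ndufv3, which rose in hypoxia control cells and fell with the siRNAs. In Cox7a1 it lies at base 260 on the other strand. In Ndufv1, which fell in hypoxia control cells, the capitals form the longer palindrome CACGTG, so that ACGTG is read on both strands. Ndufa4 fell as Ndufv1 did, with 0 matches to ACGTG. All the windows shown, that of Ndufa4 included, hold GCGTG or its complement CACGC in lower case, which was not sought. The Sdha window holds 3 NRF1 matches and also 1 match to ACGTG, left in lower case, and its gene fell in hypoxia control cells.

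Most assembly factors of the chain rose beside the subunits with each siRNA. Of 46 measured out of 49 listed, 28 rose and 7 fell in Si1 cells (60.9% and 15.2%, all genes 20.2% and 14.8%). In Si6 cells 27 rose and 1 fell (58.7% and 2.17%, all genes 17% and 11.9%). In hypoxia control against normoxic cells 5 were higher and 8 lower (10.9% and 17.4%, all genes 9.87% and 11.2%). The lowest change in Si1 cells was that of Sdhaf4, at -0.47. Ndufaf4, which helps assemble complex I, averaged 8.89 ± 0.11 in Si1 cells and 8.38 ± 0.01 in Si6 cells, against 7.52 ± 0.02 in negative control cells (SD, n = 3), log2 fold changes of 1.37 and 0.86. Sdhaf1, needed to insert the iron-sulphur clusters of Sdhb, averaged 9.14 ± 0.11 in Si1 cells and 8.82 ± 0.06 in Si6 cells, against 7.88 ± 0.15 in negative control cells, and was lower by 0.93 on the log2 scale in hypoxia control than in normoxic cells. Cox10, which makes the haem precursor of complex IV, rose by 1.05 in Si1 cells and 0.82 in Si6 cells and fell by 0.58 in hypoxia control against normoxic cells. Lyrm7, a chaperone of the Rieske protein, rose by 1.00 in Si1 cells and 0.90 in Si6 cells.

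Transcripts for the subunits encoded by mitochondrial DNA gave no such rise. Of 10 measured out of 13 listed, 0 were called in any of the 8 comparisons (limma), and 0 had an unadjusted p under 0.05 in Si1 or Si6 against the negative control or in hypoxia control against normoxia. ND4 averaged 12.97 ± 0.04 in Si1 cells and 13.01 ± 0.05 in Si6 cells, against 13.02 ± 0.02 in negative control cells (SD, n = 3). The log2 fold changes of the 10 ran from -0.09 to -0.05 in Si1 cells and from -0.03 to 0.08 in Si6 cells. ND6, the one listed gene known to lie on the light strand, averaged 8.18 ± 0.49 in Si1 cells and 8.25 ± 0.68 in Si6 cells, against 8.25 ± 0.16 in negative control cells. Array signals can flatten at high intensity, and the part of that in the absence of calls was not tested.

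**Figure D5:**
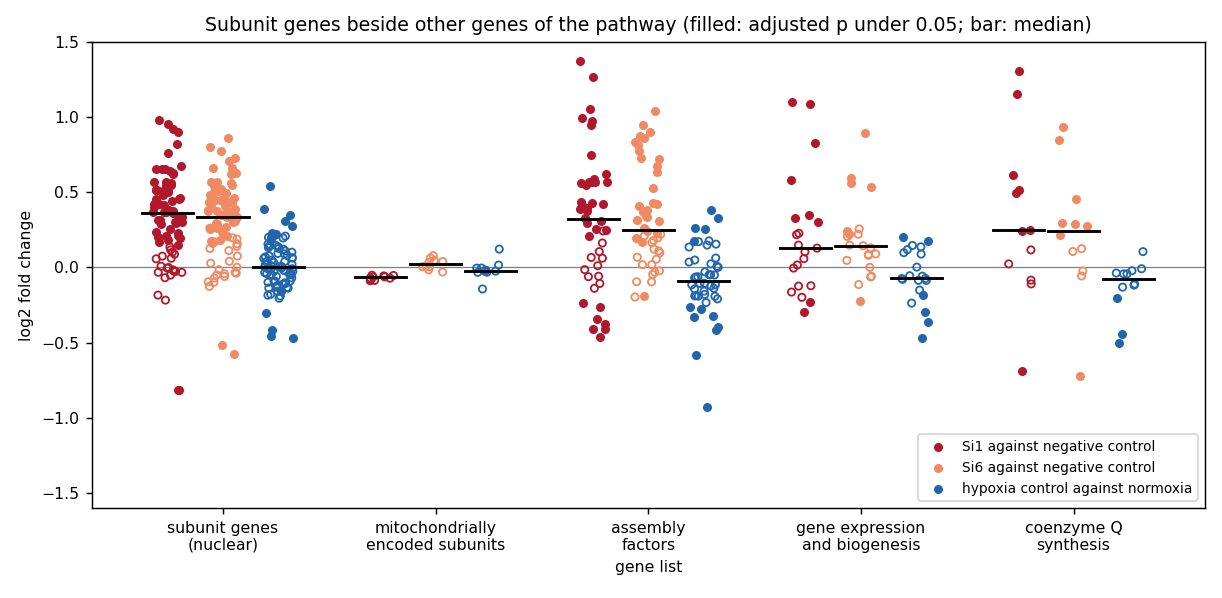
Points are genes of 5 lists, the vertical axis is the log2 fold change, filled points had an adjusted p under 0.05, bars are medians, and colours are Si1 against negative control, Si6 against negative control and hypoxia control against normoxia. Nuclear subunit genes, assembly factors and coenzyme Q synthesis have siRNA medians between 0.24 and 0.36, and the mitochondrially encoded subunits lie close to 0.

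Regulators of mitochondrial gene expression and biogenesis were mixed. Of 21 measured out of 22 listed, 7 rose and 2 fell in Si1 cells (33.3% and 9.52%, all genes 20.2% and 14.8%). In Si6 cells 6 rose and 1 fell (28.6% and 4.76%, all genes 17% and 11.9%). The coactivators Ppargc1b and Pprc1 rose by 1.10 and 1.09 in Si1 cells and by 0.53 and 0.56 in Si6 cells. Lrpprc, which stabilises mitochondrial messenger RNAs, rose by 0.83 and 0.60. Tfb1m, which methylates mitochondrial ribosomal RNA, was 0.89 higher in Si6 cells and changed by 0.02 in Si1 cells.

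In coenzyme Q synthesis, 12 genes were measured out of 13 listed, and 7 rose and 1 fell with each siRNA (58.3% and 8.33%). The shares of all genes were 20.2% and 14.8% in Si1 cells and 17% and 11.9% in Si6 cells. The methyltransferases Coq5 and Coq3 rose by 1.15 and 0.49 in Si1 cells and by 0.93 and 0.85 in Si6 cells. Coq8a, a kinase-like regulator of the pathway, was the gene that fell, by 0.69 and 0.72, and it was already 0.71 lower in negative control than in hypoxia control cells. Coq10b, a coenzyme Q chaperone, rose by 1.31 in Si1 cells and changed by -0.02 in Si6 cells.

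Of the hypoxia-responsive modifiers of the chain, 8 were measured out of 10 listed. In hypoxia control against normoxic cells, 5 rose and none fell (62.5% and 0%, all genes 9.87% and 11.2%). In Si1 cells 4 fell and 1 rose (50% and 12.5%, all genes 14.8% and 20.2%). In Si6 cells 5 fell and 2 rose (62.5% and 25%, all genes 11.9% and 17%). Bnip3, a mitophagy receptor, averaged 7.63 ± 0.14 in Si1 cells and 7.95 ± 0.09 in Si6 cells, against 11.56 ± 0.003 in negative control cells (SD, n = 3). Pdk1, the kinase that keeps pyruvate out of the citrate cycle, averaged 6.94 ± 0.16 in Si1 cells and 7.71 ± 0.03 in Si6 cells, against 10.33 ± 0.08 in negative control cells. The Myc antagonist Mxi1 fell with both siRNAs (log2 fold changes of -1.47 in Si1 cells and -1.03 in Si6 cells), as did Higd1a, a small inner-membrane protein linked to complex IV (-1.72 and -1.73). Chchd4, part of the import route for small intermembrane-space proteins and named here after its values were seen, rose by 1.08 in Si1 cells and 0.62 in Si6 cells.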

How the data were processed

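RNA from 15 cultures was labelled with biotin and hybridised to one-colour Affymetrix arrays, per the labels' protocols. The deposited values are log2 intensities of 41345 probe sets, made with RMA and Partek per the submitters' processing notes, which give neither version nor settings. Arrays normalised to one distribution cannot show a change of all genes together.

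Probe sets were named by the platform annotation: 23521 had 1 symbol, 1814 several and 16010 none, and only the first kind was used. Entrez identifiers of 23328 were found in the RefSeq table (GRCm38.p6), which changed 0 symbols. A model of 5 group means, without covariates, was fitted over 22180 genes and 15 arrays by limma 3.58.1 (R 4.3.3) with eBayes. P-values were two-sided, adjusted by Benjamini-Hochberg across the 22180 genes, and called under 0.05. Log2 fold changes had a median standard error of 0.076. The fit was also run on simulated data with independent noise and few changed genes. Far more genes were called in these data, so that run checks the code and not these results.

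Values on every array were given for the isoform pairs, Sdha to Sdhd, Cyc1, Cycs and, in complexes I, III, IV and V, the 3 genes with the largest mean siRNA change and the one with the largest hypoxia change. Ndufv1, Cox6a2 and Cox6b2 were added after their values were seen. The members, lists and rules were chosen with earlier results of these data known. Alternatives were median centring, a further quantile normalization, leaving out the lowest 25% of genes, averaging the probe sets of a gene, trend and robust eBayes, only the compared groups, the replicate letter as a block, the hypoxia control in place of the negative control, and leaving out each array. Same-lettered arrays of different groups correlated at -0.2204 to 0.2051 in their deviations from group means, so letters were not taken as pairs. The number of arrays limits the precision. Protein and scanner data were not analysed here.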

Additional observations from a re-analysis of the deposited data

Results flagged for a closer look

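At 20 of the 81 subunit genes a direct limma test of Si1 against Si6 found a difference, 12 higher and 8 lower in Si1 cells. That is 14.8% and 9.88% of them, beside 14.5% and 13.4% of all genes. The share higher was thus near that of all genes, and the share lower was below it. The differences below are log2, Si1 minus Si6. Complex IV had the widest ones, with the isoform genes Cox6b2 at 0.59 and Cox6a2 at -0.45, Cox5a at 0.44 and Cox7a1 at -0.24. Cox6b2 had log2 levels of 6.94, 6.91 and 6.87 in Si1 cells and 6.45, 6.12 and 6.39 in Si6 cells, and Cox6a2 6.93, 6.74 and 6.74 in Si1 cells and 7.34, 7.21 and 7.21 in Si6 cells, so that neither gene's groups overlapped. In the ATP synthase, Atp5g1 differed by 0.41, Atp5g3 by 0.31 and Atp5h by -0.20. In complex III, Uqcrfs1 differed by 0.34 and Uqcrc2 by 0.19.

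In complex I, Ndufab1 differed by 0.29, Ndufa11 by 0.26, Ndufb6 by 0.26, Ndufa9 by 0.25, Ndufa13 by -0.26, Ndufa2 by -0.28 and Ndufv3 by -0.30. In complex II, Sdhd differed by 0.23, Sdhb by 0.17 and Sdha by -0.39. Ndufa4 differed by -0.30. The call of Sdhb ended without any single siRNA array but Si1 replicate a (adjusted p between 0.06197 and 0.1978), and also with median centring (0.08129), the replicate block (0.05647) or only the compared groups (0.1076). That of Sdhd ended with only the compared groups (0.1043) and without any array but Si1 replicate b and Si6 replicate a (0.08769 to 0.1853), the call of Ndufa11 without Si1 replicate c or Si6 replicate a (0.08992 and 0.06381) and that of Cox7a1 without Si6 replicate b (0.05756). Hif1a itself was lower in Si1 than in Si6 cells, by 0.28 on the log2 scale (adjusted p = 0.001184, limma), and its part in these differences was not tested.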

How the results depend on the processing

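Of 212 recomputed counts of subunit genes called higher or lower, 204 stayed within 1.5 times the main count. The counts of genes higher with a siRNA against the negative control ran from 51 to 59 in Si1 cells and from 50 to 61 in Si6 cells over 14 alternatives each. With trend and robust eBayes settings, 9 subunit genes in place of 5 were lower in hypoxia control against normoxia and 11 in place of 6 in negative control against hypoxia control. Median centring left 1 in place of 2 lower in Si6 against normoxia. Leaving out one array at a time gave 1 to 2 higher and 3 to 9 lower in negative control against hypoxia control, where the counts of 1 higher came without hypoxia control replicate c and of 3 lower without hypoxia control replicate b or c. It gave 5 to 9 lower in Si1 against Si6 and 1 to 2 lower in Si6 against normoxia, both lowest without Si6 replicate b. With the replicate block, 59 rose in Si1 cells and 56 in Si6 cells, and it moved no count by over 1.5 times. Of the values of named genes, 49 lost their call, 32 gained one and 1 reversed: Cox7a1 in Si6 cells, at 0.0252 against the hypoxia control. Causes were not tested. No detection calls were used, so low signals have no floor.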
